A study of Mus musculus with 8 samples.

Results

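The 10 genes described here encode the eIF4 translation initiation factors and their close partners, namely Eif4a1, Eif4a2, Eif4a3, Eif4b, Eif4e, Eif4g1, Eif4g2, Eif4g3, Eif4h and Pdcd4, out of 56980 gene identifiers counted. Eif4a2, which lies beside Adipoq on chromosome 16, was picked because its read count was higher in the knockout, and the other 9 were picked as subunits of the same complex (eIF4F), its cofactors and inhibitor, or relatives of its subunits. All 10 passed the filter on low counts. RNA was sequenced from jejunal mucosa, scraped from the luminal surface, of 4 FFA2 fl/fl mice (the floxed controls) and 4 Adipoq-F2-KO mice. The latter are homozygous floxed mice that also carry Adiponectin-Cre, which deletes the short-chain fatty acid receptor FFA2 (gene Ffar2) in adipocytes. All mice were male littermates, housed together from birth, 12 weeks old when moved to a Western diet with 10% fructooligosaccharides (FOS), and sampled after 2 weeks on it in thermoneutral housing, when body weights had diverged. The controls carried no Cre, so the deletion and the Cre transgene itself cannot be told apart. In this line Cre sits in a bacterial artificial chromosome, a long piece of genomic DNA around Adipoq, and the neighbouring genes it holds are not given in the sources used here. The labels describe the tissue as a mixture of cell types, so fewer cells of a type and less RNA per cell cannot be told apart. They do not tie a library to a named animal, so p-values measure the spread between these libraries.

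As background, initiation of translation on most capped mRNAs starts with eIF4F, an assembly of the cap-binding protein eIF4E, the scaffold eIF4G and the RNA helicase eIF4A, which unwinds structure in the leader so that the small ribosomal subunit can load. Eif4a1 and Eif4a2 encode close paralogs of that helicase, eIF4B and eIF4H stimulate it, and Pdcd4 binds it and keeps it from the scaffold. Eif4a3 is another DEAD-box helicase of the family that works in the exon junction complex laid down by splicing rather than in eIF4F. The mucosa of the small intestine, with its fast renewal and its output of digestive enzymes and apolipoproteins, is a tissue with high demand for protein synthesis.

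The coding stretch around the DEAD motif, the ATP-binding signature shared by all 3 helicases, is shown because the account of Eif4a2 rests on telling its reads from those of Eif4a1. Each stretch is 75 bases, one read length, of spliced coding sequence that crosses an exon junction in the GENCODE M21 annotation of GRCm38, and capitals mark the 4 motif codons. The Eif4a1 stretch lies in exons 5 and 6 on the minus strand (chr11:69668681-69669079, coding bases 513 to 587), that of Eif4a2 in exons 5 and 6 on the plus strand (chr16:23110152-23110306, coding bases 519 to 593), and that of Eif4a3 in exons 6 and 7 on the minus strand (chr11:119294018-119294383, coding bases 528 to 602).
Eif4a1: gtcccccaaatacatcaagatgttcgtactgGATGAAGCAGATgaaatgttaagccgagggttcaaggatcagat
Eif4a2: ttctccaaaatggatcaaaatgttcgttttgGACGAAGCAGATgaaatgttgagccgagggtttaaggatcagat
Eif4a3: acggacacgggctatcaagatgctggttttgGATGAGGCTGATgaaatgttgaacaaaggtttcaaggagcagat
Across this window Eif4a1 and Eif4a2 differed at 11 of 75 bases, against 24 for Eif4a1 and Eif4a3 and 23 for Eif4a2 and Eif4a3. Over the whole aligned coding sequence Eif4a1 and Eif4a2 were identical at 78.0% of bases, and the longest run they shared exactly was 20 bases. A 75-base read without errors therefore matches one or the other and not both.

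Other genes shared more sequence with the helicases than the helicases did with each other. Of all 75-base windows in the transcripts of Eif4a2, 8.29% were also found in transcripts of another gene, and for Eif4a1 the share was 25.4%, mostly with the pseudogene Eif4a-ps4 (1069 of 1208 shared windows). Eif4a3 had 8.55% and Eif4e 3.10%, Eif4b and Eif4g2 were under 1%, and Eif4g1, Eif4g3, Eif4h and Pdcd4 had 0. The windows cover every annotated transcript, retained introns included, so a share of windows is not a share of reads. Of the 498 windows that Eif4a2 shared, 120 were with Rfc4 and 104 with Snora81, which overlap it, and 156 with the pseudogene Gm2999. The coding sequence of Eif4a1 is 1221 bases, beside its 1069 windows shared with Eif4a-ps4. It is not stated how reads with several matches were counted, so the levels of Eif4a1, Eif4a2 and Eif4a3 are uncertain to an unknown extent. The 3′ end of Eif4a2 overlaps the 3′ end of Rfc4, which lies on the opposite strand, and the strand setting of the counting is not stated.

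Eif4a2 (ENSMUSG00000022884, chr16:23107444-23114136, plus strand, protein-coding) had normalized read counts, that is counts divided by the size factor of the library, of 1661, 1531, 1619 and 1583 in floxed libraries 1 to 4. In Adipoq-F2-KO libraries 1 to 4 they were 2251, 1898, 2611 and 2307. Every Adipoq-F2-KO library lay above every control, as held for 1.1% of all tested genes, and the controls sat closer together than the knockouts. The means were 1598 ± 55.1 and 2267 ± 292 (SD, n = 4 each), a coefficient of variation of 3.45% in controls and 12.9% in Adipoq-F2-KO. On the log2 scale the difference was 0.50 (SE 0.11), which is a 1.42-fold higher level with a 95% interval of 1.21 to 1.65. Because the gene was chosen on this contrast, these values are a description and no test is drawn from them.

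The value behind that choice was a DESeq2 adjusted p of 0.0369, which placed Eif4a2 at rank 4 of the 6 genes called at 0.05 (0.0375% of the 15986 tested), 5 of them higher (0.0313%). Stard4 and Neu1 stood just inside the threshold at the same adjusted p of 0.0369, and Epha2 (0.0592) and Zbtb16 (0.0722) just outside. The higher level of Eif4a2 kept its direction in each of the 17 alternative settings, with log2 fold changes from 0.38 to 0.58, but the adjusted p was below 0.05 in 6 of them. The 6 were both other size factors, the stricter filter, the replicate block, and leaving out floxed library 3 or Adipoq-F2-KO library 2. The replicate block groups libraries by number, although the numbers do not pair them. Limma-voom gave an adjusted p of 0.974. Leaving out floxed library 1, 2 or 4 gave 0.266, 0.207 and 0.336, leaving out Adipoq-F2-KO library 1, 3 or 4 gave 0.186, 0.0957 and 0.419, and the quasi-likelihood test of edgeR, which called 0.0125% of all genes, gave 0.9994. Without Adipoq-F2-KO library 2, the lowest of its group, the log2 fold change was 0.58 and the adjusted p 5.99e-05.

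Depth differed between libraries beside this result. Floxed library 3 and Adipoq-F2-KO libraries 3 and 4 held 6007654 to 6541595 counts and the other 5, called deep here, held 15204995 to 21712776, and the highest values of Eif4a2 were in Adipoq-F2-KO libraries 3 and 4. Floxed library 3, also shallow, had 1619. Among the 5 deep libraries alone the log2 fold change was 0.38 (DESeq2 adjusted p = 0.225). The part of depth in the level of Eif4a2 was not tested.

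**Figure D1:**
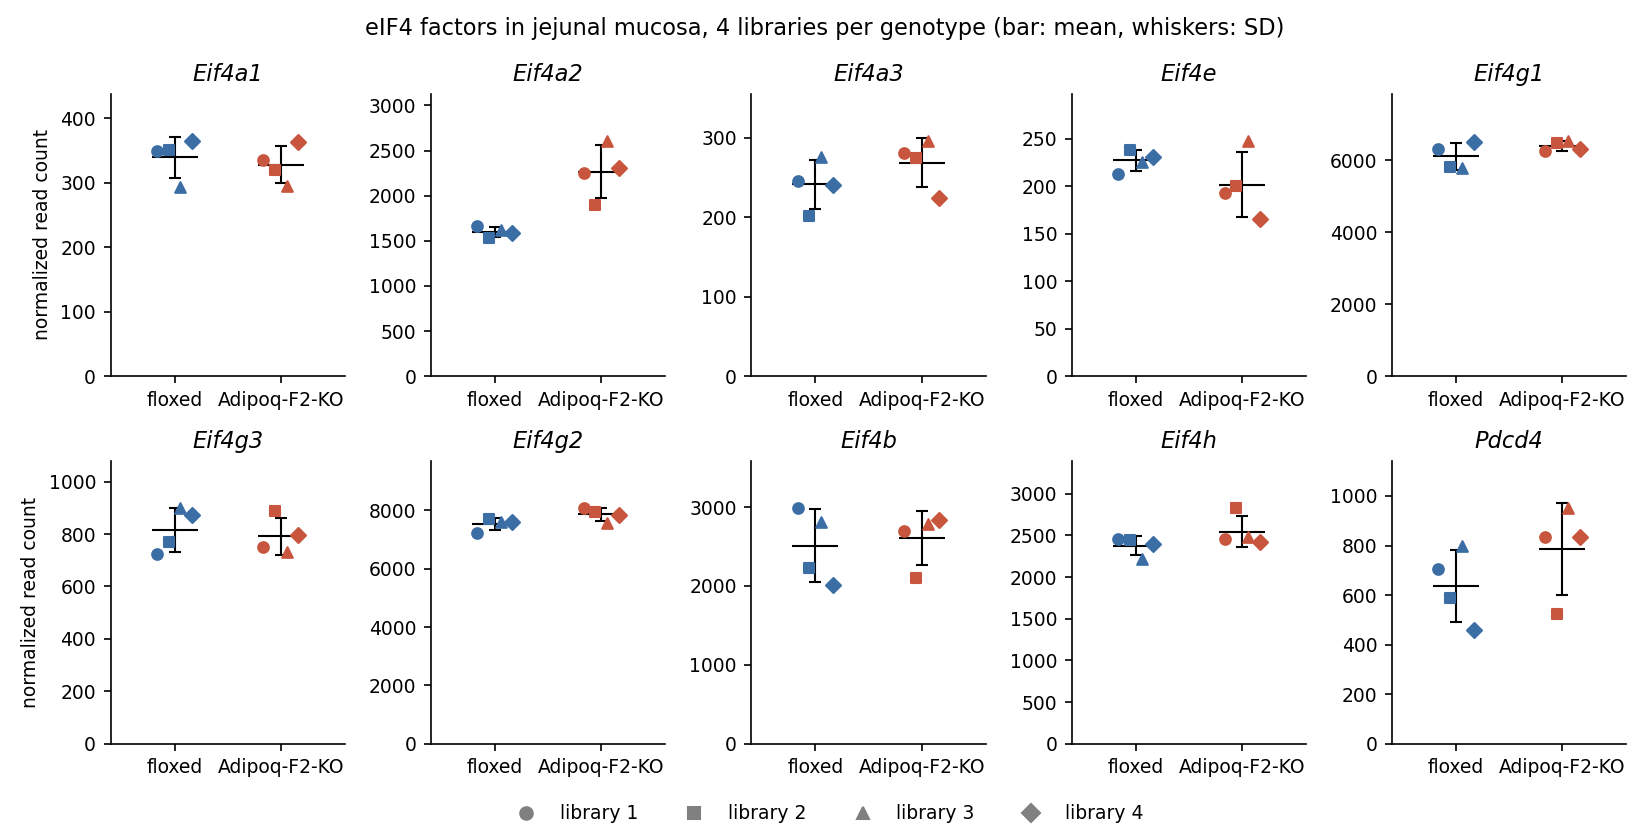
Normalized read counts of the 10 eIF4 genes (vertical axes from 0, a separate scale for each gene) in 4 floxed and 4 Adipoq-F2-KO libraries. Points are libraries, with the marker giving the library number, the horizontal line is the mean and the whiskers 1 SD. Eif4a2 alone shows no overlap between genotypes, with controls between 1531 and 1661 and knockouts between 1898 and 2611.

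The question that followed was whether the other eIF4 genes moved with Eif4a2. At an adjusted p of 0.05, 0 of the 9 other genes passed, each with a DESeq2 adjusted p of 0.9998, and 0 of 9 fell below an unadjusted p of 0.05, against 3.03% of all tested genes. With edgeR both counts were also 0, against 3.48% of all genes at an unadjusted p below 0.05, and with limma-voom they were 0 as well. At these shares counts of 0 among 9 genes do not set the eIF4 genes apart, and the interval of each gene, given below, says how large a difference it leaves room for. Of the 9, 6 had a higher and 3 a lower mean estimate in Adipoq-F2-KO. Their median log2 fold change was 0.06, beside −0.01 for all tested genes, of which 48.5% were above 0. The genotypes overlapped for each of the 9, while 2.12% of all tested genes had groups that did not overlap, in one direction or the other.

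**Figure D2:**
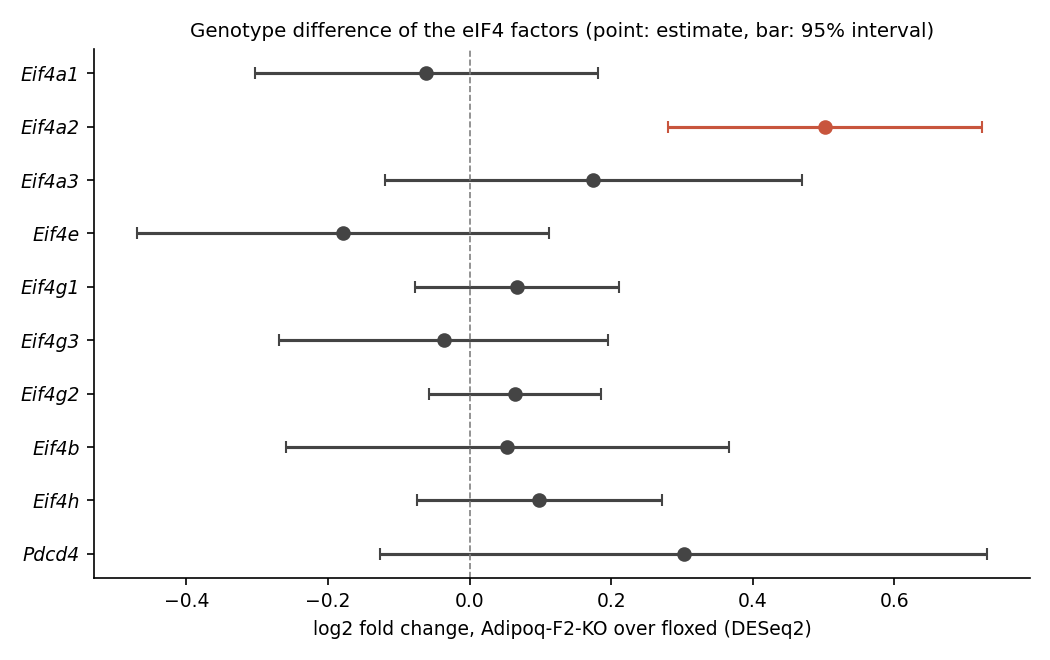
Log2 fold change of Adipoq-F2-KO over floxed controls for each eIF4 gene (horizontal axis), with points for the DESeq2 estimate and bars for its 95% interval. The interval of Eif4a2, the gene chosen on this contrast, lies above 0, and the intervals of the other 9 include 0.

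Among the helicases, Eif4a1, the paralog usually taken as the main eIF4A of dividing cells, had normalized counts of 349, 350, 293 and 365 in floxed libraries and 335, 320, 294 and 363 in knockout libraries. The knockout values fell inside the control range throughout. Its log2 fold change of −0.06 (SE 0.12, DESeq2 adjusted p = 0.9998) had a 95% interval of −0.30 to 0.18. Eif4a3 had 246, 202, 276 and 241 in controls against 281, 274, 296 and 224 in knockouts. Knockout libraries 1 and 3 exceeded the highest control and libraries 2 and 4 did not, and the log2 fold change of 0.17 had an interval from −0.12 to 0.47.

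The balance of both cytoplasmic helicases was taken within each library as the ratio of Eif4a2 to Eif4a1 counts per kilobase of exon, which does not depend on the size factors. It was 3.87, 3.55, 4.49 and 3.52 in floxed libraries and 5.46, 4.82, 7.20 and 5.16 in Adipoq-F2-KO libraries. All 4 knockouts lay above all controls, with means of 3.86 ± 0.450 and 5.66 ± 1.06 (SD, n = 4 each). This ratio uses the value that chose Eif4a2 and is given without a test. The size of the ratio, and of the sum below, depends on how reads shared by Eif4a1 and Eif4a-ps4 were counted. The ratio of group means was 1.47 and stayed between 1.33 and 1.55 when any 1 library was left out. Added together, Eif4a1 and Eif4a2 reached a normalized count of 1938 ± 55.5 in the controls, against 2595 ± 285 in the knockouts (SD, n = 4 each).

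Eif4e, the cap-binding subunit and the least abundant of the 10 per kilobase, had normalized counts of 213, 239, 226 and 231 in controls, against 193, 201, 248 and 165 in knockouts. Knockout libraries 1, 2 and 4 lay below all controls, but library 3 was the highest of all 8. This gave the lowest estimate of the 10 genes, a log2 fold change of −0.18 (SE 0.15) with a 95% interval of −0.47 to 0.11.

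Among the scaffolds, Eif4g1, the main eIF4G and itself on chromosome 16 at chr16:20668313-20692884, had 6309, 5819, 5790 and 6520 in controls, against 6262, 6487, 6551 and 6315 in knockouts. The genotypes overlapped, and the log2 fold change of 0.07 had a 95% interval of −0.08 to 0.21. The ratio of Eif4a2 to Eif4g1 read counts within a library averaged 0.262 ± 0.0151 for controls, against 0.354 ± 0.0443 for knockouts (SD, n = 4 each), and all 4 knockouts were above all controls. The ratio to Eif4a3 averaged 6.69 ± 0.707 and 8.52 ± 1.42, with 3 of 4 knockouts above all controls. Both ratios use the value that chose Eif4a2 and are given without a test. Eif4g3, a second scaffold paralog, had 723 to 899 in controls, against 731 to 887 in knockouts, and its log2 fold change of −0.04 (interval −0.27 to 0.20) turned to 0.05 in the deep libraries and to 0.01 without floxed library 3.

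Eif4g2, also known as DAP5, is a relative of the scaffold that lacks the eIF4E-binding region and serves initiation at selected mRNAs. Controls had normalized counts of 7211, 7692, 7587 and 7618, and knockouts of 8079, 7954, 7562 and 7859. Knockout libraries 1, 2 and 4 were above all controls and library 3 was within their range. The log2 fold change of 0.06 had the narrowest interval of the 10 genes, −0.06 to 0.19, or at most 1.14-fold.

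Of the helicase cofactors, Eif4h had 2459, 2439, 2215 and 2397 in controls, against 2459, 2827, 2479 and 2418 in knockouts, where library 2 stood apart from the other 3. Its log2 fold change was 0.10 with a 95% interval of −0.07 to 0.27, and 0.04 without Adipoq-F2-KO library 2. Eif4b had 2987, 2233, 2811 and 2013 in controls, against 2701, 2103, 2785 and 2835 in knockouts. The spread of Eif4b among controls (SD 462.5 on a mean of 2511) was larger than the difference between genotypes. Its log2 fold change of 0.05 (interval −0.26 to 0.37) changed sign without floxed library 4 (−0.04) or 2 (−0.0006) and among the deep libraries (−0.01).

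Pdcd4, the inhibitor of eIF4A, had the largest estimate after Eif4a2 and the highest coefficient of variation of the 10, 23.0% in controls and 23.4% in Adipoq-F2-KO. Controls had 706, 587, 797 and 460 normalized counts, and knockouts 836, 523, 951 and 835. Knockout libraries 1, 3 and 4 lay above all controls and library 2 below floxed libraries 1, 2 and 3. The estimate of 0.30 on the log2 scale (SE 0.22) had a 95% interval of −0.13 to 0.73 and did not pass (DESeq2 adjusted p = 0.9998). Without Adipoq-F2-KO library 2 it was 0.46 (unadjusted p = 0.0172, DESeq2 adjusted p = 0.9999), and without floxed library 3 it was 0.42 (unadjusted p = 0.0461, DESeq2 adjusted p = 0.4715). It fell to 0.17 without floxed library 4 and to 0.20 without Adipoq-F2-KO library 3. The same libraries were lowest for Pdcd4 and Eif4b, in the same order, namely floxed library 4, Adipoq-F2-KO library 2 and floxed library 2.

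Levels per kilobase of annotated exon placed the 10 genes in an order that did not change between genotypes. In controls the normalized counts per kilobase were 837 ± 49.7 for Eif4g1, 740 ± 21.2 for Eif4g2, 562 ± 104 for Eif4b, 428 ± 20.1 for Eif4h and 299 ± 10.3 for Eif4a2 (SD, n = 4). Pdcd4 followed with 203 ± 46.7, Eif4a3 with 114 ± 14.4, Eif4a1 with 78.3 ± 7.35, Eif4g3 with 73.8 ± 7.52 and Eif4e with 37.8 ± 1.79. Of the neighbours in this order, Eif4a1 and Eif4g3 were the pair whose means lay within the SD of either gene. In the controls too, the counted level of Eif4a2 was above that of Eif4a1. Reads that Eif4a1 shares with Eif4a-ps4 may be missing from its count, so which helicase had more mRNA cannot be told. In Adipoq-F2-KO the level of Eif4a2 was 425 ± 54.7 per kilobase and that of Eif4h 459 ± 34.1, so their ranges of mean and SD overlapped there. The exon length counts every annotated exon of a gene, retained introns included, so a level per kilobase is a lower figure for genes with many isoforms.

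Among the genes ranked, those whose pattern over the 8 libraries was most like that of Eif4a2 lay on other chromosomes. The floor on counts given next kept Rfc4, Gm24616 and St6gal1, tested genes close to Eif4a2, out of this ranking. Among 8145 tested genes with a mean normalized count of at least 100, the highest Pearson correlations of log2(normalized count + 1) were those of Taf13 (0.963), Ing2 (0.954), Cited2 (0.942), Pip5k1b (0.938) and Plekhg1 (0.937). With each genotype centred on its own mean, which takes out the difference that chose Eif4a2, these were 0.841, 0.885, 0.841, 0.834 and 0.710. Taf13 is a subunit of the general transcription factor TFIID, Ing2 a chromatin reader and Cited2 a co-regulator that binds CBP and p300. Their own log2 fold changes were 0.30, 0.36, 0.83, 0.14 and 0.43, and none passed (DESeq2 adjusted p = 0.127 for Cited2 and 0.9998 for the others). Of the eIF4 genes, Pdcd4 had the highest correlation with Eif4a2 (0.692, rank 222), followed by Eif4g1 (0.518) and Eif4a3 (0.493), and Eif4a1, Eif4e and Eif4g3 had negative values of −0.28, −0.35 and −0.42. After centring the correlation was 0.779 for Pdcd4, above that of Plekhg1, 0.672 for Eif4b and 0.308 for Eif4e. Eif4g2 went from 0.390 to −0.63 and Eif4h from 0.233 to −0.68, so the signs for Eif4e, Eif4g2 and Eif4h changed with the centring. These correlations describe 8 libraries that share the genotype difference and the depth difference, and they carry no test.

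Beyond the eIF4 genes, 7 lists of other translation genes held 128 genes, of which 124 were tested. None passed at an adjusted p of 0.05 by DESeq2, in any alternative setting including edgeR, and 1 of 124 fell below an unadjusted p of 0.05 (3.03% of all genes did). Over all tested genes 0.0375% were called by DESeq2 and 0.0125% by edgeR, so 0 of 124 does not set these lists apart. Estimates were above 0 for 73 and below 0 for 51, with a median log2 fold change of 0.02. Single estimates were unsteady, and of the 28 genes named from these lists 23 moved by over 1.5 times when some 1 library was left out. The lists cover eIF4E relatives and binding proteins, poly(A)-binding proteins, kinases that act on eIF4 factors, other initiation factors, the CCR4-NOT deadenylase with decapping, the exon junction complex with nonsense-mediated decay (NMD), and elongation and termination.

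Among the relatives and binding proteins of eIF4E, Eif4ebp3, a repressor that sequesters eIF4E, had normalized counts of 10.3, 10.5, 6.27 and 10.1 in controls, against 20.5, 13.02, 18.0 and 15.04 in knockouts. The groups did not overlap (2.12% of all genes), but counts were few and the log2 fold change of 0.77 had an interval of −0.10 to 1.65 (DESeq2 adjusted p = 0.9998). Eif4e3, an atypical cap-binding relative, was at 0.29 (SE 0.18). Cyfip2, a paralog of the eIF4E-binding Cyfip1, had 0.41 (SE 0.31, and 0.18 to 0.67 when 1 library was left out) and Gigyf2, a partner of the cap-binding repressor 4EHP, 0.11 (SE 0.11). The median of the 11 tested genes of this list was 0.09.

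Among the other initiation factors (38 tested, median log2 fold change 0.04), Eif1a, which helps the scanning ribosome find the start codon, was the gene below an unadjusted p of 0.05. Its libraries held normalized counts of 436, 485, 592 and 389 in controls, against 671, 627, 537 and 577 in knockouts. The groups overlapped through floxed library 3, and the log2 fold change of 0.36 (SE 0.15, unadjusted p = 0.0183) did not pass (DESeq2 adjusted p = 0.9998). It was 0.47 without floxed library 3 (DESeq2 adjusted p = 0.0558) and 0.57 among the deep libraries (0.0513). Over all alternatives its adjusted p reached up to 1.0. Eif2d had −0.23, Eif2s2, the beta subunit of eIF2, 0.20 and Eif5, its GTPase-activating partner, 0.10.

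None of the 11 tested kinases and kinase partners passed (DESeq2, 0 at an unadjusted p below 0.05, 0 called with edgeR), beside 0.0375%, 3.03% and 0.0125% of all tested genes. Their median log2 fold change was −0.01, and that of Mtor, whose kinase releases eIF4E from its repressors, was −0.08 (95% interval −0.26 to 0.10). The mTOR subunit Mlst8 had −0.24, the mTORC1 component Akt1s1 0.15 and Eef2k, the kinase of the elongation factor eEF2, 0.22. The list of poly(A)-binding proteins and partners holds cytoplasmic proteins that link the tail to eIF4G, their activators and repressors, and the nuclear Pabpn1. Its 9 tested genes had a median of 0.03, with Paip1 at 0.11, Pabpc4 at 0.13, Paip2b at 0.12 and Pabpn1 at −0.09. Pabpc4 changed sign in the deep libraries (−0.21).

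Eif4a2 has also been studied with the CCR4-NOT complex, which shortens poly(A) tails, and Eif4a3 with the exon junction complex. The 27 CCR4-NOT and decapping genes had a median log2 fold change of 0.05. Those with the smallest p were Btg2 (−0.44, SE 0.25, and −0.12 in the deep libraries) and Btg1 (0.24, SE 0.18, and 0.10 without floxed library 4), antiproliferative proteins that recruit the deadenylase, the decapping scaffold Edc4 (−0.23, SE 0.14) and the microRNA effector Tnrc6a (−0.17, SE 0.12). The 17 exon junction and NMD genes had a median of 0.00, with Eif4a3's core partners Rbm8a at 0.21, Magoh at 0.23, Magohb at 0.35 (SE 0.36, and 0.06 without Adipoq-F2-KO library 1) and Casc3 at 0.09. Reads shared between close copies such as Magoh and Magohb were not examined. In the list of elongation and termination factors (11 tested, median −0.01), Gspt1, the release factor eRF3a, was above all controls in 4 of 4 knockouts (as were 1.1% of all tested genes), at 908 ± 33.9 against 825 ± 21.8 (SD, n = 4 each). The estimate for Gspt1 was 0.14 (SE 0.08, unadjusted p = 0.0792, DESeq2 adjusted p = 0.9998), and Pelo, Hbs1l and Etf1 had −0.28, −0.13 and −0.05.

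**Figure D3:**
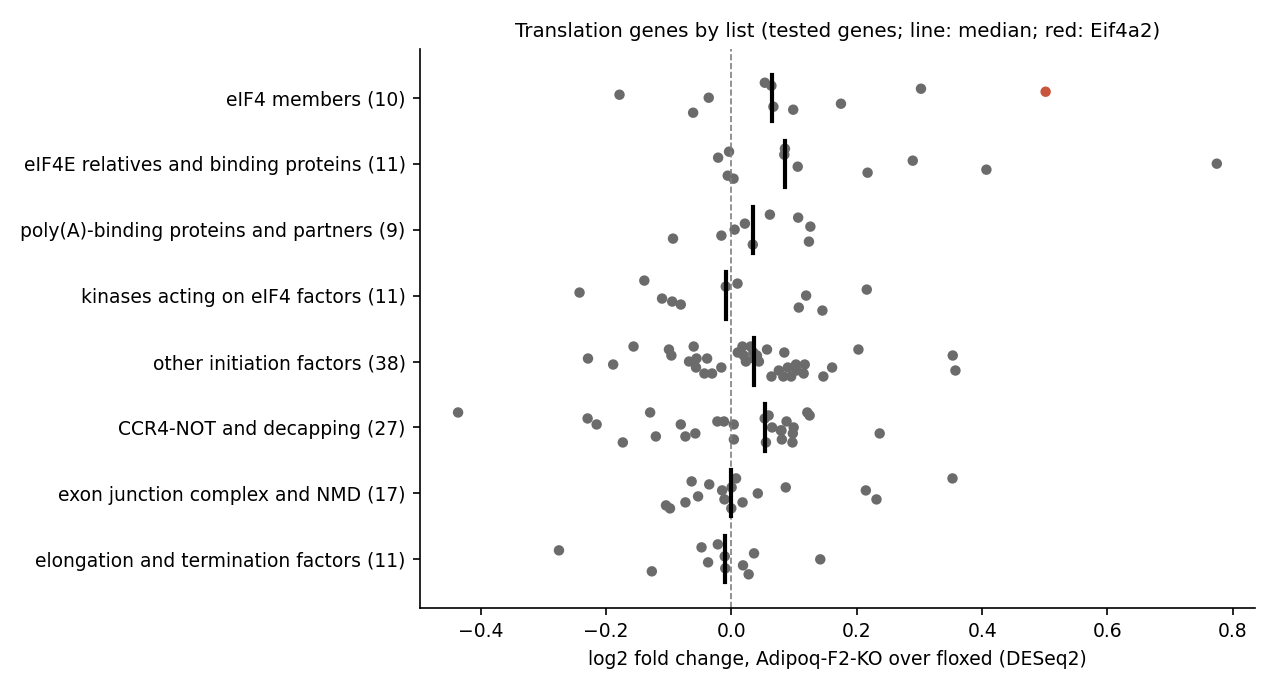
Log2 fold change of Adipoq-F2-KO over floxed controls (horizontal axis) for tested genes of the eIF4 group and the 7 other translation lists (rows, with the number of tested genes). Each point is a gene, the vertical bar is the median of the row and Eif4a2 is in red. The row medians lie between −0.01 and 0.09.

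The position of Eif4a2 beside Adipoq was examined through the genes around it. The gap between Eif4a2 and Adipoq (chr16:23146536-23158028, plus strand) is 32.4 kb, and Rfc4 lies between them. Of 20 neighbouring genes listed, 10 were tested and 0 passed by DESeq2 or in any alternative setting including edgeR, with 0 of 10 below an unadjusted p of 0.05 by DESeq2. Over all tested genes these shares were 0.0375% and 3.03%, so counts of 0 among 10 genes do not set the neighbours apart. The other 10 (Crygs, Ahsg, Fetub, Hrg, Kng2, Kng1, Adipoq, Rtp1, Masp1 and Rtp2) did not reach 10 counts in 4 libraries.

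Of the tested neighbours, Rfc4 and St6gal1 flank Adipoq. Rfc4, a subunit of the clamp loader of DNA replication, had raw counts of 25, 55, 8 and 28 in controls, against 39, 53, 14 and 17 in knockouts. After normalization these were 15.1, 29.0, 16.7 and 21.7 against 30.8, 32.9, 28.0 and 32.0, so that knockout library 3 alone fell below the highest control. Its estimate of 0.56 on the log2 scale (SE 0.35) did not pass (DESeq2 adjusted p = 0.9998). Of the 75-base windows of Rfc4, 7.45% occur in Eif4a2 transcripts, so part of its count could not be told from Eif4a2 reads if strand was not used. St6gal1, a sialyltransferase 66.7 kb beyond Adipoq, had normalized counts of 27.9, 113, 64.8 and 19.3 in controls, against 43.4, 68.8, 94.1 and 118 in knockouts, and its log2 fold change of 0.51 (SE 0.51) fell to 0.06 in the deep libraries. Without floxed library 2 it was 1.17.

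The genes farther away had estimates nearer to 0 or wide intervals. Dnajb11 and Tbccd1, on the other side of Eif4a2, had log2 fold changes of −0.01 and 0.09, Dgkg −0.02, Rtp4 0.18, Sst −0.13, Bcl6 −0.00 and Lpp −0.05, and Etv5 had −0.53 (SE 0.53), which was −0.10 without floxed library 3. The estimate for Sst ran from −0.20 to −0.02 when 1 library was left out. Gm24616, a small nucleolar RNA gene inside Eif4a2 that was added after its values were seen, had 0.58 (SE 0.42). Exons of Gm24616 and Eif4a2 overlap on the same strand, so reads on the overlap could not be told apart by strand. Snord2 and Snora81, also inside Eif4a2, had 0 counts in every library, which leaves them under the floor of 3 counts. Grouping the genes by nearness to Adipoq was done after the values were seen.

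**Figure D4:**
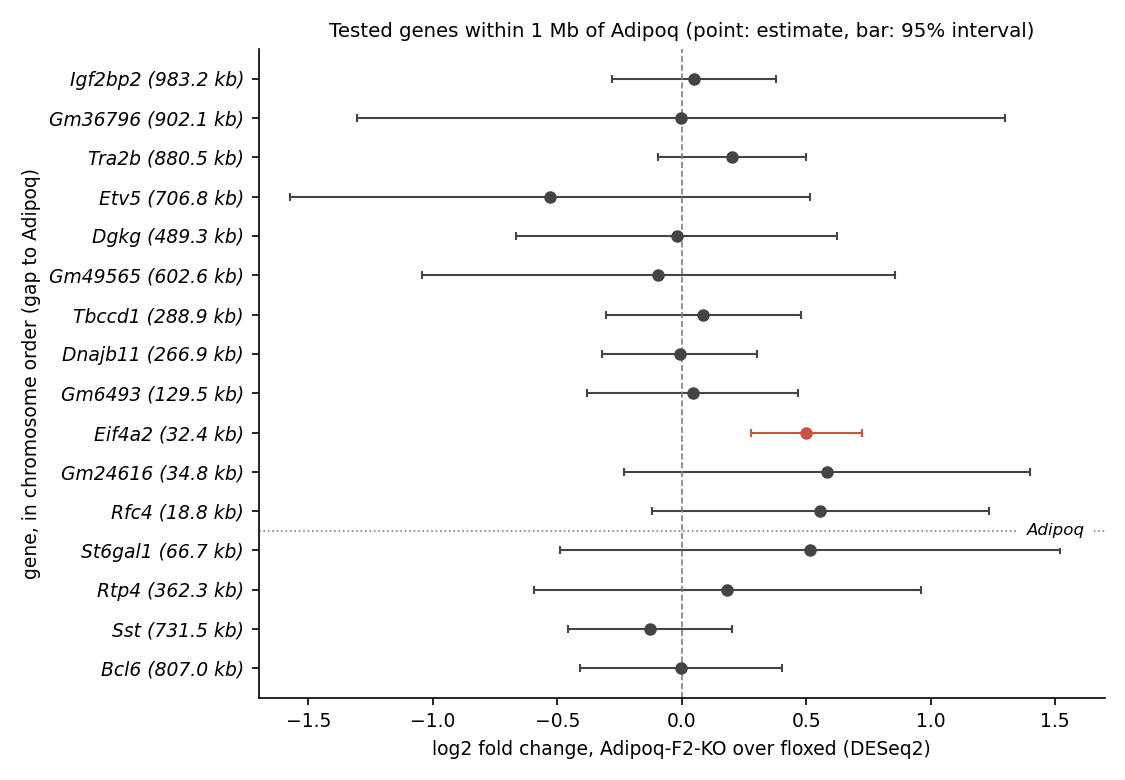
Log2 fold change of Adipoq-F2-KO over floxed controls (horizontal axis; points are DESeq2 estimates, bars 95% intervals) for 16 tested genes within 1 Mb of Adipoq, in chromosome order, with the gap to Adipoq in kb and the place of Adipoq marked by a dotted line. Eif4a2 (red, 0.50), Gm24616 (0.58), Rfc4 (0.56) and St6gal1 (0.51) have the highest estimates, and the intervals of all but Eif4a2 include 0. Exons of Gm24616 and Rfc4 overlap those of Eif4a2.

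Adipoq itself, the adipocyte hormone whose promoter drives Cre, had raw counts of 2, 3, 59 and 0 in controls, against 0, 3, 27 and 12 in knockouts. Most of its reads came from the 3 shallow libraries, which include both genotypes. The normalized count of Eif4a2 was 1619 in floxed library 3, which had the most Adipoq reads, and 2251 in Adipoq-F2-KO library 1, which had 0. Adipoq-F2-KO libraries 3 and 4, with 27 and 12 Adipoq reads, had the highest Eif4a2 counts, 2611 and 2307. The part of adipose RNA in the level of Eif4a2 was not tested.

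The tissue markers were those of jejunal epithelium. All 13 enterocyte markers were tested and their summed normalized count was 915682 to 1022233 in controls and 902022 to 1011695 in Adipoq-F2-KO. Smooth muscle markers summed to 3703 to 31631 in controls, the highest in floxed library 3, and 4056 to 12923 in Adipoq-F2-KO, with 10 of 10 estimates lower and a median log2 fold change of −0.94. That direction rested on floxed library 3, since without it 9 of 10 estimates were higher, with a median of 1.24. With the smooth muscle score as a term, the log2 fold change of Eif4a2 was 0.51 (DESeq2 adjusted p = 0.0769). Proliferation markers summed to 1841 to 2248 in controls and 2172 to 2491 in Adipoq-F2-KO, with 12 of 14 estimates higher. Macrophage markers summed to 204 to 517 and 397 to 664, with 8 of 9 higher, and 6 of 7 tested B and plasma cell markers and 6 of 8 T cell markers were higher. No marker passed by DESeq2 or edgeR, and of these lists 3 proliferation, 1 macrophage and 1 T cell gene fell below an unadjusted p of 0.05, beside 3.03% of all tested genes, of which 48.5% had estimates above 0. Of 9 adipocyte markers 4 were tested, with a median of −0.13, and 7 of 8 exocrine pancreas markers were at or under the floor in all libraries. The part of the proliferation and immune marker shifts in the level of Eif4a2 was not tested. For Ffar2 the raw counts were 12, 18, 2 and 11 in controls, against 13, 12, 6 and 3 in knockouts, and since its deletion is confined to adipocytes these counts do not check the genotype labels.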

How the data were processed

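Poly(A)-selected, strand-specific libraries were sequenced as single reads of 75 bp. The authors trimmed these with Trimmomatic, aligned them with STAR and counted them per gene with featureCounts, and the deposited values are these raw counts, 1 file per library. Per the labels the build is GRCm38 (mm10), and the annotation release, tool versions and strand setting are not given in the sources used here. Of 56980 identifiers, 52073 had a symbol in GENCODE M21, which also gave positions, exon lengths and transcripts. Genes reaching 10 counts in 4 or more libraries (15986) were tested with DESeq2 1.42.0 in R 4.3.3, genotype as the only term, two-sided Wald tests, Benjamini-Hochberg adjustment over all tested genes. Intervals are 95%. An adjusted p was missing for 8 genes. Alternatives were edgeR 4.0.16, limma 3.58.1 (voom), other size factors, other filters, the deep libraries (at least 10000000 counts), leaving out each library, a replicate block and the smooth muscle score as a term. Total counts were 6007654 to 21712776. Intervals reflect counting error plus variation among libraries, and reads carried no molecular identifiers. The members and lists were chosen with earlier results of these data known. Named were all members, the 4 genes with the smallest p in each translation list, all tested genes of the list of Eif4a2 neighbours and the 5 genes most like it. The scripts were tested on simulated counts.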

Additional observations from a re-analysis of the deposited data

Results flagged for a closer look

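Of 48 named genes in 2 genotypes, 96 groups of 4 libraries were examined for a library far from the other 3, and 3 were found, where chance gives about 1 in 20. Eif4h in Adipoq-F2-KO had a normalized count of 2827 in library 2, against 2418 to 2479 in the others. Eif4ebp3 in floxed controls was 6.27 in library 3, against 10.1 to 10.5, and rests on few counts. Paip1 in floxed controls was 673 in library 3, against 554 to 569.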

How the results depend on the processing

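Across 17 alternatives, 0 of the 9 other eIF4 genes, 0 of the other translation genes and 0 of the neighbours of Eif4a2 were called, and Eif4a2 kept its direction. Of 793 values for 47 named genes, 764 kept their sign and 29 did not, none of them called. The count of called genes over the whole table depended on the setting. It was 6 as reported, 2 with edgeR (557 at an unadjusted p below 0.05), 1 with limma-voom, 3 with no filter, 78 in the deep libraries and 1 to 109 when each library was left out, with 109 without floxed library 3, 18 without floxed library 2, 2 without floxed library 4 and 1 without floxed library 1. Same-numbered libraries of the genotypes correlated at 0.54, 0.29, 0.01 and −0.42, so the numbers do not pair them, and Adipoq-F2-KO library 4 correlated best with floxed library 3. With the replicate block 11 genes were called.

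The sign changes were in estimates of at most 0.18 in size. In the deep libraries the log2 fold change was −0.0076 for Eif4b, 0.054 for Eif4g3, −0.21 for Pabpc4, 0.0054 for Etf1, −0.0010 for Tbccd1 and 0.0625 for Lpp. Dnajb11 had 0.0096 with limma-voom and 0.0155 with the replicate block, and Bcl6 had 0.0038 with the smooth muscle term. When each library was left out, values ran from −0.0394 to 0.15 for Eif4b, −0.10 to 0.0105 for Eif4g3, −0.0038 to 0.26 for Pabpc4, −0.0861 to 0.0151 for Etf1, −0.15 to 0.17 for Dgkg and −0.0073 to 0.27 for Tbccd1. They ran from −0.0992 to 0.0948 for Dnajb11, −0.19 to 0.63 for Rtp4, −0.12 to 0.13 for Bcl6 and −0.13 to 0.0698 for Lpp. The cause was not tested. With 4 libraries per genotype, the interval given for each gene limits what can be said of it.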
